A study of Mus musculus with 6 samples.

Results

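The transcripts of 10 ferritin and iron handling genes were followed by RNA-Seq in immature mouse oocytes, the fully-grown oocytes (FGOs) of the germinal vesicle (GV) stage. FGOs came from wild type (WT) females and from females lacking Lsm14b (Lsm14b-KO). The genes were Ftl1, Fth1, Tfrc, Aco1, Ireb2, Slc11a2, Slc40a1, Pcbp1, Pcbp2 and Ncoa4, which are 10 of 24255 genes listed. The list was chosen by the level of Ftl1, which was higher in the Lsm14b-KO libraries, so the values that set Ftl1 apart are a description and are given with no test. There were 3 libraries for each genotype, or 6 in total, and each held 20 pooled oocytes. PMSG, a gonadotropin that drives follicle growth, was given at 5 IU to each female, and oocytes were taken 46 h later. Per the study's methods, Lsm14b-KO females were homozygous for Lsm14b tm1a(KOMP)Mbp, a reporter-tagged insertion carried in every tissue, on a C57BL/6J background. In the ovary LSM14B, which binds RNA, is a protein of the oocyte. The age of the mice used for RNA-Seq is not given in the sources used here. The labels do not say whether the libraries of a genotype came from separate females, so p-values measure only the spread between these libraries, which may be technical.

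Cells hold spare iron inside ferritin, a hollow protein shell built from heavy chains (FTH1), which oxidise iron on entry, and light chains (FTL1), which help it to mineralise. Iron enters most cells on transferrin through the transferrin receptor (TFRC), crosses the endosomal membrane through SLC11A2 and leaves through ferroportin (SLC40A1). The balance is set by the iron regulatory proteins ACO1 and IREB2, which in low iron bind hairpins called iron-responsive elements (IREs). Binding in the 5′ UTR of a ferritin mRNA blocks its translation, while binding in the 3′ UTR of Tfrc mRNA protects it from decay.

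Matches to a pattern of IREs in these transcripts are shown because IREs are the sites through which ACO1 and IREB2 act on other members. All 10 genes matched a GENCODE vM21 transcript (GRCm38, the assembly also called mm10), and the sense strand of each was searched. The pattern was a loop of CAGTGN flanked by 5 pairing bases on each side, with an unpaired C before the 5′ arm. Capitals mark that C and the first 5 bases of the loop. The 5′ UTRs of Ftl1, Fth1 and Slc40a1 held 1 match each, at chr7:45459779-45459807 on the minus strand, chr19:9982732-9982760 on the plus strand and chr1:45925465-45925493 on the minus strand.
Ftl1: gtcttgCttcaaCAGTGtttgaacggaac
Fth1: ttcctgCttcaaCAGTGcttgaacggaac
Slc40a1: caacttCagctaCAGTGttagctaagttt

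The 3′ UTR of Tfrc held 4 matches on the plus strand, at chr16:32631219-32631247, chr16:32631598-32631626, chr16:32631663-32631691 and chr16:32631710-32631738, given here in that order.
Tfrc site 1: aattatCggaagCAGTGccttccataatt
Tfrc site 2: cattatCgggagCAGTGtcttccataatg
Tfrc site 3: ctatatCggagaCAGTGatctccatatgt
Tfrc site 4: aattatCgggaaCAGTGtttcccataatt

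Of 19984 5′ UTRs in the annotation, 19 (0.095%) held a match, and of 20168 3′ UTRs, 109 (0.54%) did. Over whole transcripts, 260 of 21857 protein-coding genes (1.19%) held at least 1. The other 6 members held none. A match is a description of these letters. The pattern allows no bulged or mismatched arm, so a member with no match can still hold an IRE.

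Expression was given as FPKM, fragments scaled to transcript length and to the number mapped in each library, so levels of different genes can be compared per length. Of the 10 members, 8 reached 1 FPKM in at least 1 library and were tested among 6398 such genes, on the log2(FPKM + 1) scale. At low FPKM the added 1 makes a change look smaller than it was. Tfrc and Aco1 reached 1 FPKM only in Lsm14b-KO libraries, so they had to be higher there to be tested at all. Slc11a2 and Slc40a1 were not tested. With limma, 21.6% of all tested genes had an adjusted p under 0.05, 6.38% higher and 15.2% lower in Lsm14b-KO FGOs, and in 45.0% the ranges of the genotypes did not overlap. Of the 5 other members that reached 1 FPKM in WT libraries too, 2 were higher (Pcbp2 and Ncoa4), 1 was lower (Ireb2) and 2 did not pass (Fth1 and Pcbp1). Of the 2 tested only through their Lsm14b-KO values, Tfrc passed and Aco1 did not. Over all 7 the median log2 fold change was 0.42, against -0.08 over all tested genes. Because the members were chosen with this contrast known, and 2 of them were tested only because they were higher in Lsm14b-KO FGOs, nothing is read from these counts or medians.

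**Figure D1:**
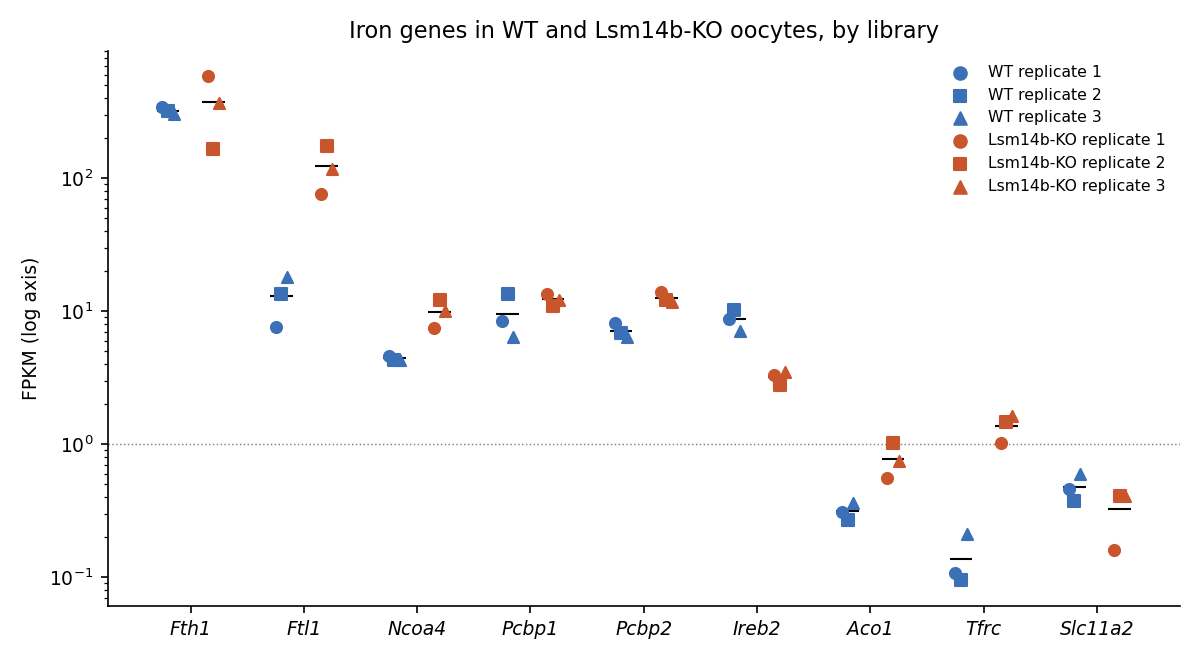
FPKM of 9 members in each of 6 libraries on a log axis, with WT libraries in blue, Lsm14b-KO libraries in orange, a marker shape for each replicate number, the mean of 3 libraries as a bar and the 1 FPKM threshold as a dotted line. Ftl1, Ncoa4, Pcbp2, Aco1 and Tfrc lie higher and Ireb2 lower in all Lsm14b-KO libraries than in all WT libraries, and Slc40a1, listed at 0 in all 6 libraries, is not drawn.

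The targeted gene, Lsm14b, was at 2.77, 3.98 and 1.72 FPKM in WT replicates 1, 2 and 3, and at 0, 0 and 0.102 FPKM in the Lsm14b-KO replicates (limma adjusted p = 0.0038). All 11 oocyte markers were tested and none passed the test, with summed levels of 49700 to 61700 FPKM in WT and 32300 to 79800 FPKM in Lsm14b-KO libraries. All 6 red blood cell markers were listed at 0 in every library, and 5 of 7 macrophage markers were, with the list summing to at most 0.733 FPKM. The 10 cumulus and granulosa markers, 4 of them at 0 in every library, summed to 9.41 to 13.2 FPKM in WT and 5.79 to 9.38 FPKM in Lsm14b-KO libraries. Their most abundant member, Cyp19a1, was lower in Lsm14b-KO libraries (3.0 to 5.76 FPKM, against 8.26 to 11.5 FPKM, limma adjusted p = 0.0426). Other markers of the list did not share its direction. Fshr was at 0.349 to 1.68 FPKM in WT and 1.82 to 2.07 FPKM in Lsm14b-KO libraries (limma adjusted p = 0.0923), Kitl at 0.097 to 0.383 and 0.402 to 0.559 FPKM, and Inha overlapped. Over the 3 tested markers the log2 fold change had a median of 0.38, and the part of these markers in the results was not tested. Judged by the smallest FPKM steps, the Lsm14b-KO libraries were also deeper. They were at 1.33 to 2.17 times the depth of WT replicate 1, against 1.0 to 1.15 times for the WT libraries. Read totals are not given, so this depth could not be checked, and the steps also carry any scaling in the deposited FPKM. The FPKM of all genes summed to 1141324 to 1244182 in WT and to 564671 to 1029728 in Lsm14b-KO libraries. Scaling every library to the same sum raised the median log2 fold change of all genes by 0.475, and 63.2% of the called genes were then higher in Lsm14b-KO FGOs, against 29.5% as deposited, 42.4% after quantile normalization and 44.9% after a length and GC correction.

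Among the storage genes, the ferritin light chain set the choice of the list. The heavy chain had the highest mean FPKM of the members in both genotypes. Ftl1 (ENSMUSG00000050708.16, chr7:45457944-45459884, minus strand) was at 7.6, 13.4 and 18.0 FPKM in the WT replicates and at 76.3, 175 and 118 FPKM in the Lsm14b-KO replicates. All 3 Lsm14b-KO libraries lay above all 3 WT libraries, and within the Lsm14b-KO libraries replicate 1 was lowest and replicate 2 highest. The mean was 13 ± 5.2 FPKM in WT and 123 ± 49.8 FPKM in Lsm14b-KO FGOs (SD, n = 3), a ratio of 9.47, and the log2 fold change was 3.14 (SE 0.42). With equal FPKM sums it was 3.81, or 3.34 less the 0.475 by which that scaling raised the median of all genes. At other loci, 6 genes, 4 of them annotated pseudogenes, have transcripts near-identical to those of Ftl1. None of them is listed among the 24255 genes, and reads from them could have been counted as Ftl1. The gene body also overlaps Gm22133 on the same strand and Gm10252 on the other.

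Fth1 (chr19:9980598-9985098, plus strand) was at 343, 318 and 305 FPKM in the WT replicates and at 586, 167 and 368 FPKM in the Lsm14b-KO replicates. As deposited, the WT libraries were close to each other, whereas the Lsm14b-KO libraries fell on both sides of them. Replicate 2 was below and replicates 1 and 3 were above every WT library. The mean was 322 ± 19.4 FPKM in WT and 374 ± 210 FPKM in Lsm14b-KO FGOs (SD, n = 3). The log2 fold change of 0.04 (SE 0.46, limma adjusted p = 0.956) did not pass the test, with a 95% interval of -1.02 to 1.09 that spans changes of about the same size in either direction. As deposited, the sign rested on single libraries. On leaving out Lsm14b-KO replicate 1, 2 or 3 in turn the value was -0.37, 0.53 or -0.04. It was -0.00076 without WT replicate 3. The size also depended on the scaling. With equal FPKM sums the log2 fold change was 0.73 (limma adjusted p = 0.091), and after quantile normalization it was 0.77 (limma adjusted p = 0.102). Less the 0.475 by which equal sums raised the median of all genes, the first of these was 0.25. No near-identical copy and no overlapping gene was found for Fth1.

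The shares of the chains in ferritin transcripts were compared within libraries. Light chain made up 2.17%, 4.05% and 5.56% of summed ferritin FPKM in the WT replicates, and 11.5%, 51.2% and 24.2% in the Lsm14b-KO replicates. In Lsm14b-KO replicate 2 the chains were thus at about equal FPKM, and that library had both the highest Ftl1 and the lowest Fth1. Summed ferritin FPKM was 351, 332 and 323 in the WT replicates and 662, 342 and 486 in the Lsm14b-KO replicates. On this sum as deposited the genotypes overlapped, since Lsm14b-KO replicate 2 lay within the WT range. The overlap depends on the scaling. In that library the FPKM of all genes summed to 564671, against 1141324 to 1244182 in WT libraries. The ferritin sum was not taken with equal FPKM sums. The log2 ratio of Ftl1 to Fth1 within a library was -4.60 ± 0.67 in WT and -1.50 ± 1.50 in Lsm14b-KO FGOs (SD, n = 3), a difference of 3.10 that, like Ftl1 itself, is given with no test.

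**Figure D2:**
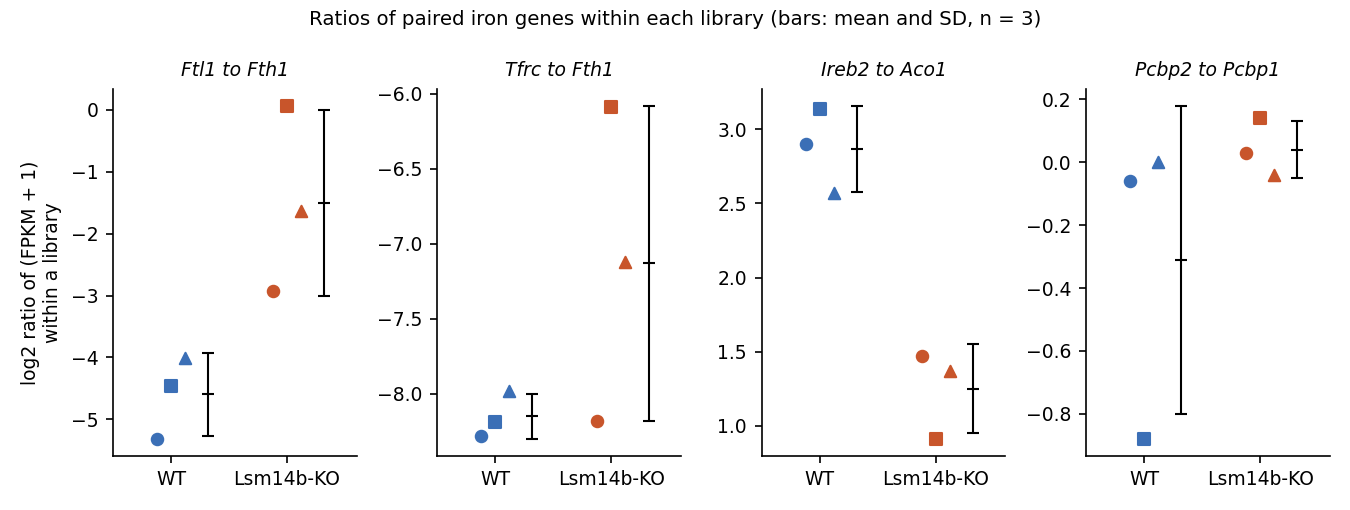
Log2 ratio of (FPKM + 1) within each library for 4 pairs of members, with circles, squares and triangles for replicates 1, 2 and 3 and bars for the mean and SD (n = 3 libraries). The ratio of Ftl1 to Fth1 is higher and that of Ireb2 to Aco1 lower in all Lsm14b-KO libraries than in all WT libraries, while the genotypes overlap for Tfrc to Fth1 and Pcbp2 to Pcbp1.

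The genes that load and unload ferritin were at intermediate levels. Ncoa4 and Pcbp2 passed as higher in Lsm14b-KO FGOs, as did 6.38% of all tested genes, and Pcbp1 did not pass. PCBP1 and PCBP2 are poly(C)-binding proteins that bind RNA and also deliver iron to ferritin, and NCOA4 is the receptor that carries ferritin to lysosomes for breakdown. Ncoa4 (chr14:32159865-32179855, plus strand) was at 4.64, 4.31 and 4.31 FPKM in the WT replicates and at 7.45, 12.2 and 10.0 FPKM in the Lsm14b-KO replicates. Every Lsm14b-KO library was above every WT library, and the WT libraries hardly differed among themselves. The mean rose from 4.42 ± 0.191 to 9.89 ± 2.37 FPKM (SD, n = 3). The log2 fold change was 0.98 (SE 0.24, limma adjusted p = 0.0262). The call was lost without any 1 of the libraries other than Lsm14b-KO replicate 1, with adjusted p from 0.0556 without Lsm14b-KO replicate 2 to 0.107 without WT replicate 2, and also without a filter on low values (0.0578). At another locus, 1 annotated pseudogene, Gm6768, has a transcript near-identical to that of Ncoa4. Gm6768 is not among the listed genes, and reads from it could have been counted as Ncoa4.

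Pcbp2 (chr15:102470539-102500061, plus strand) was at 8.13, 6.82 and 6.44 FPKM in the WT replicates and at 13.9, 12.2 and 11.8 FPKM in the Lsm14b-KO replicates. The genotypes did not overlap, and the spread within each was small. The mean rose from 7.13 ± 0.887 to 12.6 ± 1.07 FPKM (SD, n = 3). The log2 fold change was 0.75 (SE 0.22, limma adjusted p = 0.0474). This call lay at the edge of the threshold. With the replicate block the limma adjusted p was 0.0847, and without any 1 of the libraries other than Lsm14b-KO replicate 1 it ranged from 0.0698 without Lsm14b-KO replicate 2 to 0.158 without WT replicate 2. Pcbp2 overlaps 3 other genes, among them Map3k12 on the opposite strand.

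Pcbp1 (chr6:86524492-86526321, minus strand) was at 8.49, 13.4 and 6.45 FPKM in the WT replicates and at 13.5, 11.0 and 12.2 FPKM in the Lsm14b-KO replicates. The genotypes overlapped, because WT replicate 2 was as high as the Lsm14b-KO libraries. The means were 9.45 ± 3.57 and 12.3 ± 1.24 FPKM (SD, n = 3), and the log2 fold change of 0.39 (SE 0.29, limma adjusted p = 0.334) had a 95% interval of -0.28 to 1.07. The log2 ratio of Pcbp2 to Pcbp1 differed by 0.36 between genotypes (exact permutation p = 0.2, two-sided, adjusted p = 0.2 over 3 ratios). This test cannot go below 0.10 with 3 libraries against 3, so it says nothing on whether the paralogs responded alike. Pcbp1 overlaps 1600020E01Rik on the opposite strand.

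Of the regulators of the IRE system, Ireb2 was lower in Lsm14b-KO FGOs and Aco1 did not pass the test. IREB2 lacks aconitase activity and is destroyed when iron is high, whereas ACO1 is bifunctional and serves as cytosolic aconitase when it carries an iron-sulphur cluster. Ireb2 (chr9:54863789-54912530, plus strand) was at 8.78, 10.2 and 7.09 FPKM in the WT replicates and at 3.31, 2.79 and 3.51 FPKM in the Lsm14b-KO replicates. All Lsm14b-KO libraries were below all WT libraries. The mean fell from 8.69 ± 1.56 to 3.2 ± 0.372 FPKM (SD, n = 3), to 0.368 of the WT mean, with a log2 fold change of -1.20 (SE 0.22, limma adjusted p = 0.0108). With equal FPKM sums the log2 fold change was -0.62 (limma adjusted p = 0.119). Less the 0.475 by which that scaling raised the median of all genes, it was -1.10. The limma adjusted p was 0.0601 without WT replicate 1, 0.063 without WT replicate 2 and 0.0537 without Lsm14b-KO replicate 3.

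Aco1 (chr4:40143081-40198338, plus strand) was at 0.309, 0.271 and 0.361 FPKM in the WT replicates and at 0.559, 1.02 and 0.742 FPKM in the Lsm14b-KO replicates. The genotypes did not overlap, and the only value above 1 FPKM was that of Lsm14b-KO replicate 2. The means were 0.314 ± 0.0449 and 0.772 ± 0.23 FPKM (SD, n = 3), and the log2 fold change of 0.42 (SE 0.20, 95% interval -0.03 to 0.88, limma adjusted p = 0.147) did not pass the test. Within a library, Ireb2 was at 28.4, 37.6 and 19.6 times the FPKM of Aco1 in the WT replicates and at 5.92, 2.74 and 4.73 times in the Lsm14b-KO replicates. Ireb2 thus stayed the more abundant regulator transcript in all 6 libraries, by a smaller margin in each Lsm14b-KO library than in any WT library. The log2 ratio was 2.87 ± 0.29 in WT and 1.25 ± 0.30 in Lsm14b-KO FGOs (SD, n = 3), a difference of -1.62 with an exact permutation p of 0.1 (two-sided, adjusted p = 0.2 over 3 ratios). With 3 libraries against 3, the exact test cannot give a p below 0.10. Aco1 lay near or below the pseudocount of 1 and reached 1 FPKM only in an Lsm14b-KO library, so the ratio on this scale mostly reflects Ireb2. With a pseudocount of 0.1 or 0.01 the difference was -2.45 or -2.67 (exact permutation p = 0.1 for both).

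Of the uptake and export genes, Tfrc was nearly absent from WT FGOs and detected in all Lsm14b-KO libraries. The 4 matches to the IRE pattern in Tfrc (chr16:32608920-32632794, plus strand) are shown above. Tfrc was at 0.108, 0.0947 and 0.21 FPKM in the WT replicates and at 1.02, 1.47 and 1.64 FPKM in the Lsm14b-KO replicates. The lowest Lsm14b-KO library was far above the highest WT library. The mean rose from 0.138 ± 0.063 to 1.38 ± 0.323 FPKM (SD, n = 3), a ratio of 10.0, with a log2 fold change of 1.06 (SE 0.20, limma adjusted p = 0.012). Since Tfrc entered that test only through its Lsm14b-KO values, this p is not independent of the direction. When every gene above 0 in any library was tested, the limma adjusted p of Tfrc was 0.0238. The log2 value depended on the pseudocount, being 2.64 with 0.1 and 3.28 with 0.01, and its limma adjusted p was 0.067 without Lsm14b-KO replicate 3. The WT values rest on very few reads. From the smallest FPKM steps in each library, they correspond to about 4 fragments over the 3 WT libraries and 69 over the 3 Lsm14b-KO libraries if a step is taken as 1 unpaired read, a depth-corrected ratio of 10.1 with an exact 95% interval of 3.76 to 38.0 that covers counting error only.

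IREs act on the translation of Fth1 mRNA but on the decay of Tfrc mRNA, so mRNA levels do not show both effects. The ratio of Tfrc to Fth1 mRNA was taken without reading IRE control from it. Its mean was -8.15 ± 0.15 in WT and -7.13 ± 1.05 in Lsm14b-KO FGOs on the log2(FPKM + 1) scale (SD, n = 3), a difference of 1.02 (exact permutation p = 0.2, two-sided, adjusted p = 0.2 over 3 ratios, smallest possible p 0.10). With WT Tfrc far below the pseudocount of 1, the WT ratios on this scale mostly reflect Fth1, and with a pseudocount of 0.1 or 0.01 the difference was 2.61 or 3.25 (exact permutation p = 0.1 for both). The genotypes overlapped on this scale, with Lsm14b-KO replicate 1 inside the WT range. Without the pseudocount, Tfrc was at 0.000315, 0.000298 and 0.000688 of the FPKM of Fth1 in the WT replicates and at 0.00174, 0.0088 and 0.00447 in the Lsm14b-KO replicates, and these did not overlap.

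Slc11a2 (chr15:100387898-100425072, minus strand), which moves iron out of endosomes, was at 0.458, 0.375 and 0.594 FPKM in the WT replicates and at 0.161, 0.405 and 0.407 FPKM in the Lsm14b-KO replicates. The genotypes overlapped, with Lsm14b-KO replicate 1 alone below the others. Its highest value was under 1 FPKM, so it was not tested with the other members. When every gene above 0 was tested, its log2 fold change was -0.16 (SE 0.14, limma adjusted p = 0.519). Slc40a1 (chr1:45908068-45926523, minus strand), the iron exporter, was listed at 0 in all 6 libraries, so no fold change can be given.

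The order of the members by mean WT FPKM was Fth1, Ftl1, Pcbp1, Ireb2, Pcbp2, Ncoa4, Slc11a2, Aco1, Tfrc and Slc40a1. Ftl1, Pcbp1, Ireb2 and Pcbp2 could not be placed in order beyond their spread, since their WT ranges overlapped, whereas Fth1 was above all of them in every WT library. In Lsm14b-KO FGOs Ftl1 stood apart from the middle group, its lowest library at 76.3 FPKM being above the highest value of Pcbp2 at 13.9 FPKM. There Tfrc was above Slc11a2 in every library, the reverse of their order in WT.

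**Figure D3:**
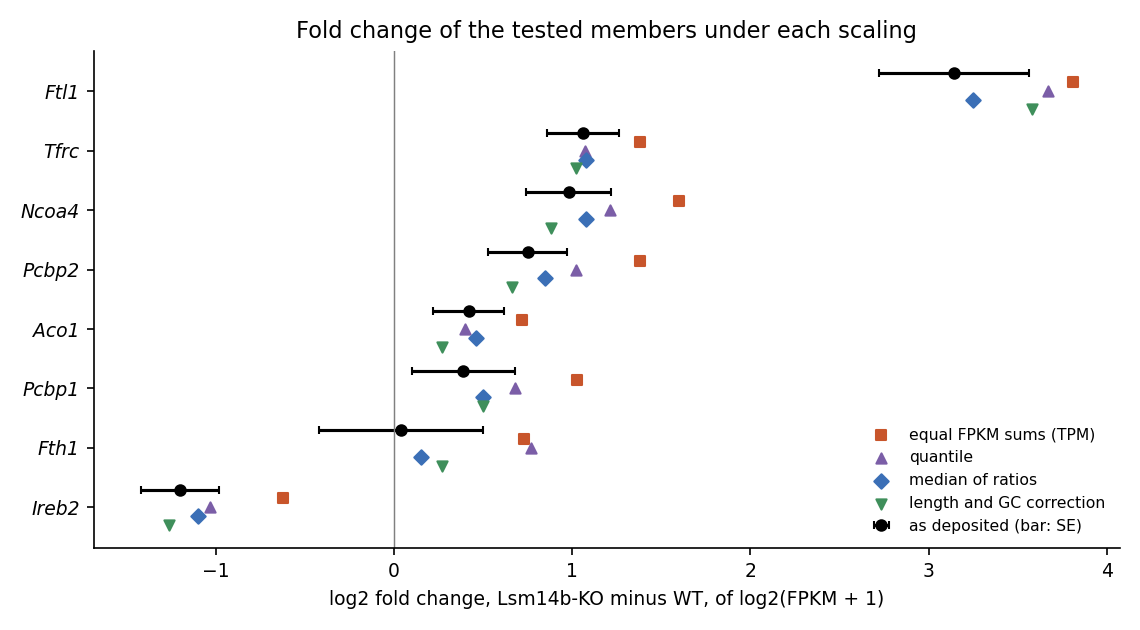
Log2 fold change (Lsm14b-KO minus WT, log2(FPKM + 1) scale) of the 8 tested members as deposited, with SE bars, and under 4 other scalings. The sign of each member is kept across the 5 scalings, and equal FPKM sums move each of the 8 upward, with Ireb2 at -0.62.

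Other genes of iron biology were taken from 5 lists, which held 73 genes, of which 70 were listed and 33 were tested. Of these, 1 was higher and 5 were lower in Lsm14b-KO FGOs by limma, or 18.2%, against 21.6% of all tested genes. The median log2 fold change was -0.17. Each library pooled 20 oocytes, so fewer oocytes holding a transcript and less of it in each oocyte cannot be told apart.

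Among the 23 other genes of iron uptake, export and release, 10 were listed at 0 in all 6 libraries, 4 were tested and none passed. Steap4, of the family of ferrireductases that reduce iron in endosomes, was nearest, at 1.14 to 1.45 FPKM in WT and 1.86 to 2.44 FPKM in Lsm14b-KO libraries (log2 fold change 0.51, limma adjusted p = 0.0829). Tfr2, the second transferrin receptor, was listed at 0 in all 6 libraries, so Tfrc was the only transferrin receptor transcript detected.

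Of 9 further genes of ferritin, iron chaperones and sensing, 5 were tested, with 1 higher, 1 lower and 3 not passing. Fbxl5 encodes the iron-sensing ubiquitin ligase subunit that directs IREB2 protein to degradation. It was at 1.55, 1.79 and 2.07 FPKM in the WT replicates and at 3.21, 10.0 and 5.51 FPKM in the Lsm14b-KO replicates, so the genotypes did not overlap. Its mean rose from 1.8 ± 0.26 to 6.24 ± 3.45 FPKM (SD, n = 3). The log2 fold change was 1.26 (SE 0.34, limma adjusted p = 0.0357). IREB2 protein was not measured in these libraries, and a link between Fbxl5 and Ireb2 mRNA was not tested. Fbxl5 passed with Lsm14b-KO replicate 1 left out but with none of the other 5 libraries left out (limma adjusted p from 0.0621 without Lsm14b-KO replicate 2 to 0.134 without WT replicate 1). It did not pass without the filter on low values either (0.0893), and it overlaps 5 other annotated genes. Bola2, a partner of the glutaredoxin Glrx3 in handing on iron-sulphur clusters, fell from 13.7 ± 7.81 to 2.11 ± 0.48 FPKM (SD, n = 3; log2 fold change -2.13, limma adjusted p = 0.00762). Glrx3 itself was at 4.73 to 5.39 FPKM in WT and 2.72 to 3.74 FPKM in Lsm14b-KO libraries and did not pass (limma adjusted p = 0.0815). Ftmt, the mitochondrial ferritin, was listed at 0 in all 6 libraries.

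Mitochondria use iron to build iron-sulphur clusters, and 14 of 20 listed genes of that process were tested, with 0 higher, 3 lower and 11 not passing. Bola1, which acts late in mitochondrial cluster assembly, fell most, from 215 ± 18.1 to 20.4 ± 9.49 FPKM (SD, n = 3; log2 fold change -3.42, limma adjusted p = 0.00145). Ndufab1, the mitochondrial acyl carrier protein, fell from 345 ± 10.6 to 129 ± 42 FPKM (log2 fold change -1.46, limma adjusted p = 0.0202), and 2 loci have transcripts near-identical to it. The third was Fdx1, a ferredoxin that passes electrons (log2 fold change -1.07, limma adjusted p = 0.0293). Bola1 and Bola2 passed under all 17 alternatives. Ndufab1 did not pass without any 1 of the WT libraries or Lsm14b-KO replicate 3 (limma adjusted p from 0.079 to 0.0944), nor Fdx1 without any 1 library but Lsm14b-KO replicate 1 (0.0609 to 0.105). The limma adjusted p of Fdx1 was 0.164 with equal FPKM sums and 0.0739 without the filter on low values. Isca1 was at 10.8 to 15.6 FPKM in WT and 14.8 to 103 FPKM in Lsm14b-KO libraries and did not pass (limma adjusted p = 0.0874).

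In cytosolic cluster assembly 5 of 9 genes were tested and 1 passed. This was Nubp2, a scaffold subunit, which fell from 70.6 ± 3.97 to 25.4 ± 7.63 FPKM (SD, n = 3; log2 fold change -1.47, limma adjusted p = 0.0141). It did not pass without any 1 of the WT libraries or Lsm14b-KO replicate 3 (limma adjusted p from 0.0586 to 0.0802). Of 12 genes of heme synthesis and breakdown 5 were tested and none passed, with a median log2 fold change of -0.40.

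**Figure D4:**
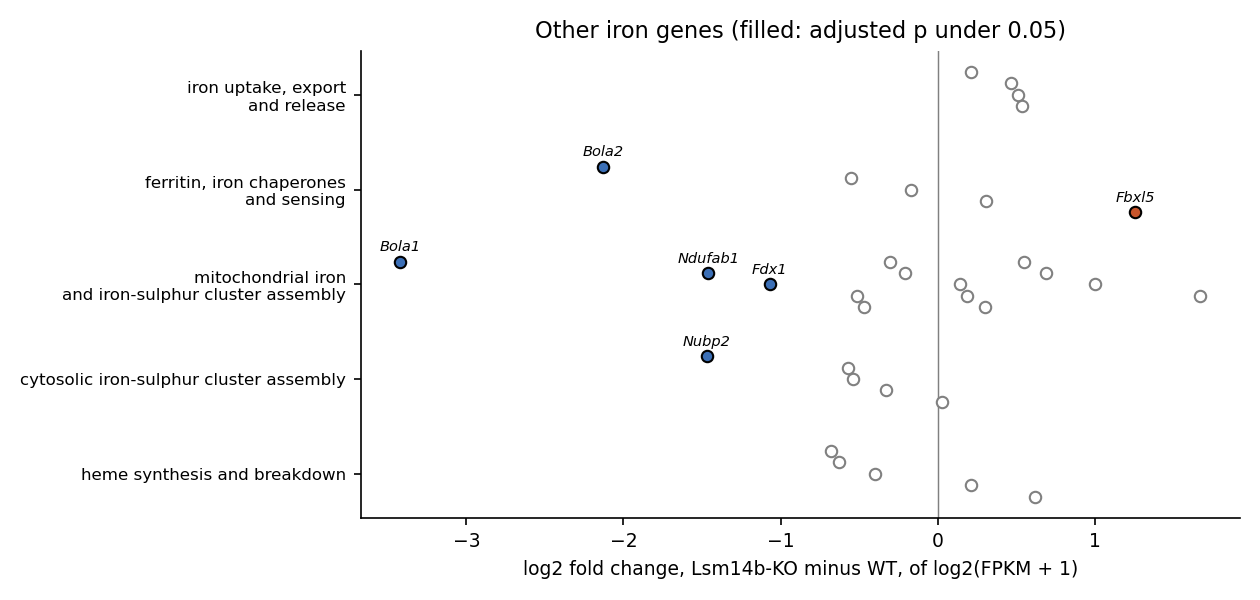
Log2 fold change (Lsm14b-KO minus WT, log2(FPKM + 1) scale) of the 33 tested genes in 5 lists of other iron genes, 1 point a gene, filled and named where the limma adjusted p was under 0.05. The 6 named genes are Fbxl5 on the higher side and Bola1, Bola2, Nubp2, Ndufab1 and Fdx1 on the lower side.

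The genes whose levels ran most like Ftl1 were sought among 2559 tested genes with a mean of at least 5 FPKM. Likeness was the root mean square difference between log2(FPKM + 1) values over the 6 libraries, each gene centred on its own mean. The nearest were Ugcg at 0.42, Hspa8 at 0.47, Malat1 at 0.50, Nobox at 0.51 and Hsph1 at 0.54, against a median of 1.93 and a value of 1.82 for Fth1. Since Ftl1 was chosen for its pattern, these are descriptions with no test.

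Ugcg, which makes glucosylceramide, was at 0.583, 1.79 and 0.99 FPKM in the WT replicates and at 6.36, 16.5 and 16.2 FPKM in the Lsm14b-KO replicates. Nobox, an oocyte homeobox gene, was at 10.5, 10.5 and 16.5 FPKM in the WT replicates and at 46.3, 98.9 and 52.3 FPKM in the Lsm14b-KO replicates. Like Ftl1, both were higher in every Lsm14b-KO library than in any WT library. Hspa8 and Hsph1 encode cytosolic chaperones, and Malat1 is a nuclear long non-coding RNA. Hspa8 was at 28.1 FPKM in Lsm14b-KO replicate 1 and at 155 FPKM in replicate 2, the same order as Ftl1. At 6 loci there are transcripts near-identical to Hspa8. In Lsm14b-KO replicates 1, 2 and 3, Malat1 was at 63.8, 64.4 and 52.3 FPKM and Hsph1 at 46.9, 40.5 and 50.0 FPKM. Neither kept the order of Ftl1 among these replicates.

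**Figure D5:**
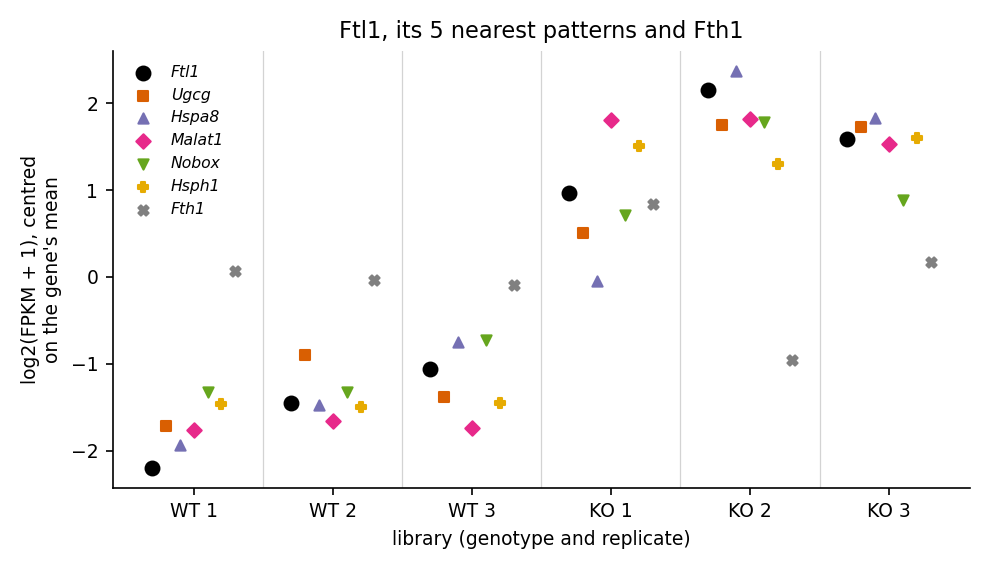
Log2(FPKM + 1) of Ftl1, its 5 nearest patterns and Fth1 in each of 6 libraries, each gene centred on its mean. Ftl1, Ugcg, Hspa8, Malat1, Nobox and Hsph1 are lower in the 3 WT libraries and higher in the 3 Lsm14b-KO libraries, while Fth1 stays near 0 in WT and spreads to both sides in Lsm14b-KO libraries.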

How the data were processed

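RNA of 20 GV-stage FGOs per library was amplified by Smart-seq2. The labels name more than 1 library kit, and strandedness is not stated. Per the submitters' processing notes, the tools were TopHat2 2.0.13, Cufflinks 2.2.1, Cuffnorm and Cuffdiff, on mm10. The annotation is not given in the sources used here. The authors deposited FPKM for 24255 genes. Their columns of fold changes, p-values and q-values were not used. Read totals are not given, so relative depth was taken from the smallest FPKM steps. A spreadsheet had turned 27 symbols into dates.

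FPKM was transformed to log2(FPKM + 1), and genes with at least 1 FPKM in any library were compared by limma 3.58.1 under R 4.3.3 (eBayes with trend, two-sided), with Benjamini-Hochberg adjustment over 6398 genes. Cuffdiff, used in the study, needs reads. Ratios were tested by exact permutation (scipy 1.17.1). Transcripts came from GENCODE vM21, with length and GC content for 6318 (98.7%) tested genes. Copies were found with blastn 2.17.0 at 95% identity over at least 200 nt. The fit was tested on simulated data. Named were the members, Lsm14b, called genes of 5 iron lists with a mean of at least 1 FPKM, the 5 genes nearest to Ftl1 and the most abundant marker of a list. Steap4, Tfr2, Glrx3, Ftmt and Isca1 were named after their values were seen. The members and lists were chosen with earlier results of these data known. A gene of the mitochondrial list is not reported here and was left out of the list and its counts.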

Additional observations from a re-analysis of the deposited data

How the results depend on the processing

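The 1383 calls over all genes became 720 without a filter on low values, and 315 to 2898 when 1 library was left out (lowest without Lsm14b-KO replicate 3, highest without replicate 1 of that genotype). The 4 calls among members other than Ftl1 became 2 without the filter (Tfrc and Ireb2). With 1 library left out they became 0 to 4, with 0 without Lsm14b-KO replicate 3 and 1 (Tfrc) without WT replicate 1 or 2. Tfrc entered the 4 only through its Lsm14b-KO values, so nothing is read from these counts. As deposited, 21.6% of all tested genes passed. The 6 calls among other iron genes became 4 without the filter and 2 to 10 with 1 library left out. Log2 fold changes with 1 library left out were 2.83 to 3.44 for Ftl1, -0.37 to 0.53 for Fth1, 0.97 to 1.17 for Tfrc, -1.32 to -1.09 for Ireb2, 0.69 to 0.84 for Pcbp2 and 0.83 to 1.15 for Ncoa4. That of Fth1 turned negative without WT replicate 3 (-0.00076), Lsm14b-KO replicate 1 (-0.37) or Lsm14b-KO replicate 3 (-0.04). Equal FPKM sums gave 3.81 for Ftl1, 0.73 for Fth1 (limma adjusted p = 0.091) and -0.62 for Ireb2, which no longer passed. Pcbp2 no longer passed with a pseudocount of 0.1 (0.82) or 0.01 (0.83), without the filter (0.75), with the length and GC correction (0.66) or with the replicate block (0.75, limma adjusted p = 0.0847). Ncoa4 no longer passed without the filter (0.98). Aco1 and Pcbp1 stayed positive and short of the threshold in 16 and 17 alternatives, and the 4 ratios kept their direction in 10. The cause of each of these changes was not tested, except that fewer libraries or more genes tested are part of the alternatives themselves.

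Deviations of same-numbered libraries correlated at 0.19, -0.128 and 0.018, so the numbers were not taken to pair the libraries. The replicate block gave 1244 calls over all genes and changed no other call among the members. Tfrc and Aco1 had no value with a minimum of 5 FPKM. Few reads stand behind the values of Tfrc, Aco1 and Slc11a2, and a level listed at 0 can be a failed estimate.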
